A study of Mus musculus with 9 samples.

Results

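The genes described here are 8 clock output factors of mouse liver: the PAR bZIP activators Dbp, Tef and Hlf, their opponent Nfil3, the nuclear receptor Rora, the repressors Bhlhe40 and Bhlhe41, and the deubiquitinase Usp2. They were chosen by symbol, and all 8 are among the 23337 genes of the count table and among the 13141 genes with enough reads to be tested. Poly(A) RNA was sequenced with a strand-preserving protocol from the livers of 9 C57BL/6 mice, 3 in each of 3 labelled groups. All 9 had started a high-fat diet (HFD) at 6 to 8 weeks of age and had received it for 16 weeks. The groups are whole-body knockouts of protease-activated receptor 2 (PAR2 KO), mice with a hepatocyte-specific knockout of the same receptor (PAR2dHep), and floxed controls with genotype PAR2fl/fl (WT). The Cre driver of the hepatocyte knockout, the structure of the whole-body allele and the hour of tissue collection are not given in the sources used here. For transcripts that cycle over the day, the hour of collection and the group therefore cannot be told apart.

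PAR in "PAR bZIP" stands for a region rich in proline and acidic amino acids and has nothing to do with the receptor PAR2. The core clock of a liver cell is a loop in which BMAL1 (gene Arntl) and CLOCK switch on genes through E-boxes, and the PER and CRY proteins shut that drive down. DBP, TEF and HLF carry the rhythm onward by activating genes through D-boxes, many of them enzymes of drug, bile acid and lipid metabolism, while NFIL3 (also called E4BP4) represses at the same D-boxes. RORA activates through ROR elements that the REV-ERB repressors (Nr1d1 and Nr1d2) also bind, and BHLHE40 and BHLHE41 (DEC1 and DEC2) repress at E-boxes. USP2 removes ubiquitin from clock and other proteins, and its mRNA is strongly rhythmic in mouse liver.

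F2rl1, the gene of PAR2, was read first as a check of the labels. It had 71, 103 and 76 reads in the libraries labelled PAR2 KO, 2, 8 and 0 reads in PAR2dHep and 17, 27 and 28 reads in WT. The libraries labelled PAR2 KO were the highest of all, with a log2 fold change of 2.22 ± 0.51 (SE) over WT (edgeR adjusted p = 0.00735), which goes against their label if the deletion removes the counted sequence. The table gives 1 count for the whole gene and none by exon, so a deleted part of it cannot be seen apart. In PAR2dHep the change from WT was -2.73 ± 0.66 (edgeR adjusted p = 0.0164), and the adjusted p was 0.0505 without PAR2dHep 1, 0.0595 without WT 2 and 0.0620 without WT 3. The whole-body group is therefore called by its label below, as KO-labelled libraries. Assigned reads ran from 18683660 to 30509242 per library. Every library had reads of all 10 hepatocyte markers, with summed levels of 111596 to 127185 CPM (reads scaled to a library of 1e+06 assigned reads, with normalised library sizes) in KO-labelled libraries, 111270 to 163142 CPM in PAR2dHep and 105994 to 111779 CPM in WT. Genes of pancreatic acinar cells summed to 1734 CPM in PAR2dHep 2 and 456.1 CPM in WT 1, against 12.5 to 84.8 CPM in the other 7 libraries, and skeletal muscle genes to 613.7 CPM in PAR2dHep 2, against 0.889 to 53.6 CPM in the other 8. Intestinal epithelium markers were highest in KO-labelled library 1, at 422.5 CPM with reads of all 7, against 156.9 to 317.9 CPM in the other 8. This sum can rest on few of the 7 markers. It reached 275.1 CPM in PAR2dHep 1 and 202.7 CPM in KO-labelled library 3, each with reads of only 3. It is therefore not a measure of intestinal tissue. Across genes, which are not independent replicates, Pearson's r of log2 CPM was 0.974 to 0.989 between KO-labelled libraries, 0.949 to 0.974 between PAR2dHep libraries and 0.984 to 0.991 between WT libraries. PAR2dHep 2 was nearest to PAR2dHep 1, with an r of 0.962, against 0.949 to PAR2dHep 3 and 0.950 to WT 1. PAR2dHep 3 was also nearest to PAR2dHep 1, at 0.974, with 0.960 to 0.964 to the KO-labelled libraries. Where leaving out WT 1 and PAR2dHep 2 together changes the call of a member or moves a list count by over 1.5 times, the value without them is given.

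In the mm10 coordinates of the deposited table, Dbp lies at chr7:45705247-45710203, Tef at chr15:81802673-81826863, Rora at chr9:68653802-69379028, Bhlhe40 at chr6:108660629-108666925 and Usp2 at chr9:44067021-44095627, all on the plus strand. Hlf lies at chr11:90336535-90390917, Nfil3 at chr13:52967209-52981039 and Bhlhe41 at chr6:145862737-145865340 on the minus strand. The sequence just upstream of the members bears on the circuit they share, since several of them are reached by the clock through the same short elements. RefSeq promoter entries (build GRCm38.p6) were matched for 7 of the 8 members, with 8 entries in all because Tef has a pair of starts. The 250 bases before each start were searched on both strands for an E-box (CACGTG), a D-box (TTATGTAA or TTACGTAA), a ROR element (TAGGTCA) and the cAMP response element or CRE (TGACGTCA). The 5 windows with a match are shown 5′ to 3′ on the strand of the gene, with the matching letters in capitals.
Tef, first start, chr15:81802423-81802672, plus strand: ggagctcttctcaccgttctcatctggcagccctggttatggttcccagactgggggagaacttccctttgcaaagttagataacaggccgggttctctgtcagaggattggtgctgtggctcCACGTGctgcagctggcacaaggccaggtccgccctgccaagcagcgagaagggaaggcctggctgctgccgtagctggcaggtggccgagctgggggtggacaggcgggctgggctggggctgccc
Tef, second start, chr15:81811164-81811413, plus strand: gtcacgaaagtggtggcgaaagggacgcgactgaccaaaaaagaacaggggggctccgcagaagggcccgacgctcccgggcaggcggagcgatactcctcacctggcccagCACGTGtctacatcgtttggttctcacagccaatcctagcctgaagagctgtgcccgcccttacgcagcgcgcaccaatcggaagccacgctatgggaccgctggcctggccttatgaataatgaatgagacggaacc
Bhlhe41, chr6:145865421-145865670, minus strand: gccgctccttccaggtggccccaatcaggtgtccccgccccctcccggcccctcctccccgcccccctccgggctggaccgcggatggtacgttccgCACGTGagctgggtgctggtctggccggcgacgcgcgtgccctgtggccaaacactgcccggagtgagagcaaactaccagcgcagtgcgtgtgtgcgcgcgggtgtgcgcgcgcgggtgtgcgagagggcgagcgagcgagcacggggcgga
Hlf, chr11:90390918-90391167, minus strand: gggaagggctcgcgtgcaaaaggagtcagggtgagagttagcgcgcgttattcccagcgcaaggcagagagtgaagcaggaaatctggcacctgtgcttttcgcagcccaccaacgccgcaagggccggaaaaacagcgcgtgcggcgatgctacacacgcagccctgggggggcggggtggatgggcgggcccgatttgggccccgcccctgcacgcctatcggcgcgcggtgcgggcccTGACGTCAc
Nfil3, chr13:52981040-52981289, minus strand: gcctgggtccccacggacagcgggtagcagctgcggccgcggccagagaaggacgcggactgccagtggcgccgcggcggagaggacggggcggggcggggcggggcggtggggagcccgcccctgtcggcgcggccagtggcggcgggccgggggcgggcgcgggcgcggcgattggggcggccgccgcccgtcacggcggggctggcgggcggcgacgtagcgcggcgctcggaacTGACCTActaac
The capitals mark an E-box at -127 to -122 and at -138 to -133 from the 2 starts of Tef, and at -153 to -148 from the start of Bhlhe41. The Hlf window holds a CRE at -9 to -2, and the Nfil3 window holds TGACCTA, the reverse complement of the ROR element, at -12 to -6. None of the motifs overlapped another. Among 32851 RefSeq promoter windows of the same length, 6.02% hold the E-box, 2.23% the ROR element, 1.55% the CRE and 0.931% a D-box. The windows of Dbp, Rora and Usp2 hold none of these letters, which says nothing of elements elsewhere. The Usp2 window, at chr9:44084670-44084919, lies inside the gene span given above, so the bases before that span were not searched. Such a match is a stretch of letters and not a measured binding site.

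The 3 PAR bZIP activators were lower in KO-labelled livers than in WT, and none of them passed the test in PAR2dHep against WT. Dbp, the activator best known for its large daily swing, had 704, 432 and 622 reads in the KO-labelled libraries, 2435, 2008 and 1093 in PAR2dHep and 1564, 1774 and 1767 in WT. That came to 33.1, 19.5 and 35.9 CPM in the KO-labelled libraries, 73.0, 80.6 and 53.6 CPM in PAR2dHep and 58.8, 65.7 and 63.0 CPM in WT. All 3 KO-labelled libraries lay below all 6 others, while PAR2dHep and WT overlapped. Dbp fell 2.12-fold against WT (a log2 change of -1.08 with an SE of 0.22, edgeR adjusted p = 0.00429) and 2.35-fold against PAR2dHep (-1.23 ± 0.22, edgeR adjusted p = 0.0113). The fall against PAR2dHep missed the threshold of 0.05 when WT 1 and PAR2dHep 2 were both left out (edgeR adjusted p = 0.0526). PAR2dHep differed from WT by 0.15 ± 0.22 (edgeR adjusted p = 0.657).

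Tef, thyrotroph embryonic factor, followed the same pattern. It stood at 98.8, 66.2 and 106 CPM in the KO-labelled libraries, 170.8, 270.7 and 206.3 CPM in PAR2dHep and 171.2, 195.9 and 151.5 CPM in WT. Again the KO-labelled libraries were below all others without overlap, and the highest value of all was PAR2dHep 2. Tef fell 1.91-fold against WT (log2 change of -0.94 ± 0.21, edgeR adjusted p = 0.00663) and 2.39-fold against PAR2dHep (-1.26 ± 0.21, edgeR adjusted p = 0.00922), and both calls held under all 17 alternative settings (other tools, filters and scalings, and fits without single libraries). PAR2dHep differed from WT by 0.32 ± 0.21 (edgeR adjusted p = 0.285). Hlf, hepatic leukemia factor, moved least of the 3. Its levels were 69.9, 44.7 and 57.5 CPM in the KO-labelled libraries, 69.9, 90.3 and 90.0 CPM in PAR2dHep and 74.6, 85.8 and 80.1 CPM in WT. The KO-labelled libraries were below WT without overlap, but the highest of them lay at nearly the same value as PAR2dHep 1. Hlf fell 1.40-fold against WT (-0.48 ± 0.16, edgeR adjusted p = 0.0383). That call depended on single libraries: the adjusted p was 0.123 without KO-labelled library 2, 0.0966 without KO-labelled library 3, 0.0599 without WT 1, 0.120 without WT 2 and 0.0926 without WT 3, and 0.0607 without WT 1 and PAR2dHep 2 together. Against PAR2dHep, Hlf differed by -0.54 ± 0.16 and missed the threshold (edgeR adjusted p = 0.0678), although it passed without KO-labelled library 1 (edgeR adjusted p = 0.0327), without PAR2dHep 1 (0.0404) and by DESeq2 (0.0229). The difference of PAR2dHep from WT was 0.06 ± 0.16 (edgeR adjusted p = 0.824).

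**Figure D1:**
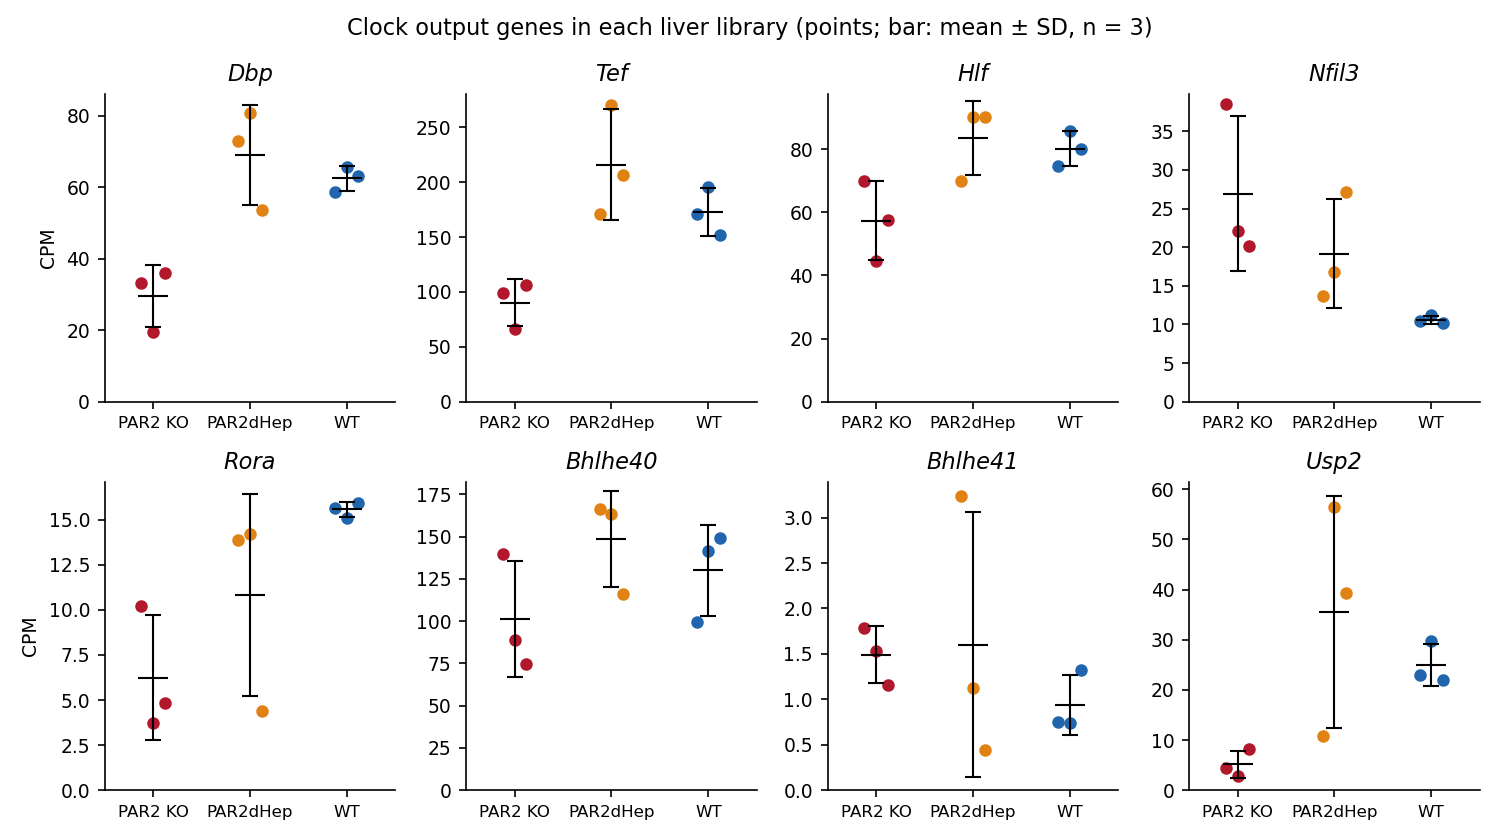
Level of each of the 8 members in each of the 9 livers, in CPM on an axis that starts at 0, with the group mean and SD. The 3 KO-labelled libraries lie below the WT libraries without overlap for Dbp, Tef, Hlf, Rora and Usp2 and above them for Nfil3, and PAR2dHep overlaps WT for all members but Nfil3 and Rora.

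Nfil3, the repressor that competes with these activators for the D-box, went the other way. It had 819, 488 and 350 reads in the KO-labelled libraries, 455, 418 and 552 in PAR2dHep and 277, 302 and 287 in WT. Its levels were 38.5, 22.1 and 20.2 CPM in the KO-labelled libraries, 13.6, 16.8 and 27.1 CPM in PAR2dHep and 10.4, 11.2 and 10.2 CPM in WT. Each KO-labelled and each PAR2dHep library was above each WT library, and the KO-labelled and PAR2dHep libraries overlapped. Nfil3 rose 2.54-fold in KO-labelled livers against WT (log2 change of 1.34 ± 0.29, edgeR adjusted p = 0.00579), and the adjusted p stayed between 4.86e-05 and 0.0267 under the 17 alternatives. In PAR2dHep against WT the difference was 0.85 ± 0.29 and missed the threshold (edgeR adjusted p = 0.0602). It passed without KO-labelled library 1 (edgeR adjusted p = 0.0298), without PAR2dHep 1 (0.0344), with only these groups in the fit (0.0487) and by DESeq2 (0.0193). Without PAR2dHep 3 the difference was 0.52 ± 0.26 (edgeR adjusted p = 0.192), and the adjusted p was 0.143 without WT 1, 0.137 without WT 2 and 0.163 without WT 3. KO-labelled livers against PAR2dHep gave 0.49 ± 0.29 (edgeR adjusted p = 0.286). Nfil3 and F2rl1 both lie on chromosome 13, 42.5 Mb apart in mm10.

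Because activators and repressor share a binding site, their transcripts were also set against each other within each library. The summed level of Dbp, Tef and Hlf was 201.7, 130.5 and 199.3 CPM in the KO-labelled libraries, 313.8, 441.6 and 350.0 CPM in PAR2dHep and 304.5, 347.4 and 294.6 CPM in WT. Divided by Nfil3, this gave 5.24, 5.91 and 9.87 in the KO-labelled libraries, 23.0, 26.3 and 12.9 in PAR2dHep and 29.3, 31.05 and 28.8 in WT. The 3 groups formed an order without overlap: every KO-labelled library was below every PAR2dHep library, and those below every WT library. The step between PAR2dHep and WT lay in Nfil3, whose own difference missed the threshold (edgeR adjusted p = 0.0602). The summed activators averaged 368.5 CPM in PAR2dHep and 315.5 CPM in WT. Levels of single genes did not overlap between PAR2dHep and WT for 43.4% of all genes tested. The ratio averaged 7.01 ± 2.499 in KO-labelled livers, 20.7 ± 6.97 in PAR2dHep and 29.7 ± 1.19 in WT (SD, n = 3 each), a description of counts already tested gene by gene. Within this sum of CPM, in which longer transcripts weigh more, Tef made up 51.0% in KO-labelled livers, 58.2% in PAR2dHep and 54.7% in WT, and Hlf made up 32.6% in KO-labelled livers, 22.8% in PAR2dHep and 25.5% in WT.

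**Figure D2:**
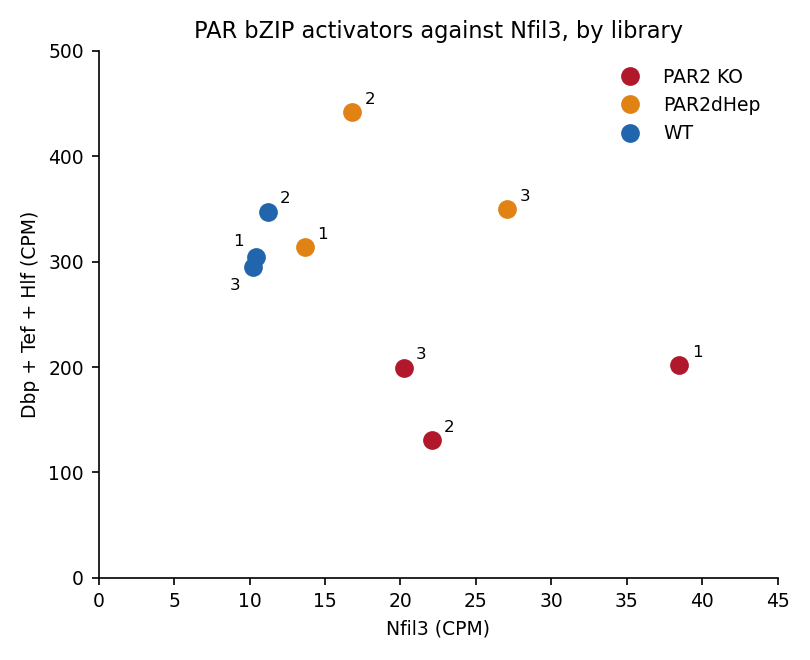
Summed level of Dbp, Tef and Hlf (CPM, vertical axis) against the level of Nfil3 (CPM, horizontal axis), 1 point for each of the 9 livers. The WT points sit together at 294.6 to 347.4 CPM of the activators and 10.2 to 11.2 CPM of Nfil3, the PAR2dHep points spread to the right of them, and the KO-labelled points lie lower, at 130.5 to 201.7 CPM of the activators.

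Rora, the activator at ROR elements, had 217, 82 and 84 reads in the KO-labelled libraries, 463, 354 and 89 in PAR2dHep and 417, 408 and 447 in WT. Its levels were 10.2, 3.71 and 4.85 CPM in the KO-labelled libraries, 13.9, 14.2 and 4.37 CPM in PAR2dHep and 15.7, 15.1 and 15.9 CPM in WT. The WT mice were within a narrow band, all 6 other livers lay below it, and PAR2dHep 3 was as low as the KO-labelled libraries. Rora fell 2.49-fold in KO-labelled livers against WT (log2 change of -1.31 ± 0.45, edgeR adjusted p = 0.0396), but the adjusted p was 0.136 without KO-labelled library 2, 0.128 without KO-labelled library 3, 0.0810 without WT 1, 0.0852 without WT 2 and 0.0926 without WT 3. It was 0.0747 by edgeR without WT 1 and PAR2dHep 2 together. PAR2dHep differed from WT by -0.52 ± 0.43 (edgeR adjusted p = 0.413). KO-labelled livers differed from PAR2dHep by -0.80 ± 0.45 (edgeR adjusted p = 0.273), and by an amount that passed when PAR2dHep 3 was left out (edgeR adjusted p = 0.0454).

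The E-box repressors Bhlhe40 and Bhlhe41 passed no test. Bhlhe40, which insulin and the clock are both known to induce in liver, was at 139.9, 89.0 and 74.3 CPM in the KO-labelled libraries, 166.1, 163.5 and 115.8 CPM in PAR2dHep and 99.4, 141.6 and 149.1 CPM in WT. The groups overlapped in every pairing. Against WT the KO-labelled livers differed by a log2 fold change of -0.36 ± 0.25 (edgeR adjusted p = 0.258), a difference that passed without KO-labelled library 1 (-0.65, edgeR adjusted p = 0.0434) and by limma voom (-0.59, adjusted p = 0.0190). The differences were -0.55 ± 0.25 from PAR2dHep (edgeR adjusted p = 0.178) and 0.19 ± 0.25 for PAR2dHep from WT (0.606). Bhlhe41 was the member with the fewest reads, with 38, 34 and 20 reads in the KO-labelled libraries, 108, 28 and 9 in PAR2dHep and 20, 20 and 37 in WT. PAR2dHep alone held both the highest and the lowest library, and the SE of its log2 fold change against WT was 0.59 for an estimate of 0.80 (edgeR adjusted p = 0.351). Without PAR2dHep 1 that estimate turned to -0.24. KO-labelled livers differed by 0.67 ± 0.60 from WT (edgeR adjusted p = 0.390) and by -0.13 ± 0.58 from PAR2dHep (0.905). With this spread, a change of Bhlhe41 of such sizes was not detectable.

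Usp2 had the largest fold change of the 8 in KO-labelled livers, against WT and against PAR2dHep. It had 93, 64 and 141 reads in the KO-labelled libraries, 360, 1408 and 800 in PAR2dHep and 610, 802 and 618 in WT. This was 4.37, 2.89 and 8.14 CPM in the KO-labelled libraries, 10.8, 56.5 and 39.2 CPM in PAR2dHep and 22.9, 29.7 and 22.0 CPM in WT. All KO-labelled libraries were below all others, and the PAR2dHep libraries lay on both sides of WT. Usp2 fell 4.89-fold against WT (log2 change of -2.29 ± 0.56, edgeR adjusted p = 0.00942) and 6.97-fold against PAR2dHep (-2.80 ± 0.56, edgeR adjusted p = 0.0173). The call against WT held under all 17 alternatives. The call against PAR2dHep was lost without KO-labelled library 1 (edgeR adjusted p = 0.0523), without KO-labelled library 2 (0.0728), without WT 1 and PAR2dHep 2 together (0.0636), with only these groups in the fit (0.0544) and by limma voom (0.0590). PAR2dHep differed from WT by 0.51 ± 0.51 (edgeR adjusted p = 0.498). The sign turned by limma voom (-0.062) and without WT 1 and PAR2dHep 2 together (-0.061), and the difference was -0.0027 without PAR2dHep 2 alone.

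Counted over the 8 members, KO-labelled livers against WT had 5 that fell and 1 that rose, where 22.1% of all 13141 genes tested fell and 20.9% rose, 43.0% in all. In PAR2dHep against WT, 0 of 8 passed edgeR's test, where 24.3% of all genes did, 12.4% with a rise and 11.9% with a fall. Nfil3 was the 1 member with an unadjusted p under 0.05 there, and DESeq2 also called 1 member. KO-labelled livers against PAR2dHep had 3 members that fell and 0 that rose by edgeR's test, where 5.39% of all genes fell and 4.23% rose, 9.62% in all. There, 4 members had an unadjusted p under 0.05, and DESeq2 called 4. The groups did not overlap for 6 of 8 members in KO-labelled livers against WT (66.2% of all genes), for 2 of 8 in PAR2dHep against WT (43.4%) and for 4 of 8 in KO-labelled livers against PAR2dHep (26.5%). The median log2 fold change of the members was -0.71 in KO-labelled livers against WT, where that of all genes tested was -0.01. It was 0.26 in PAR2dHep against WT, where all genes had 0.02, and -0.68 in KO-labelled livers against PAR2dHep, where all genes had -0.02. The comparisons with WT share its libraries.

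**Figure D3:**
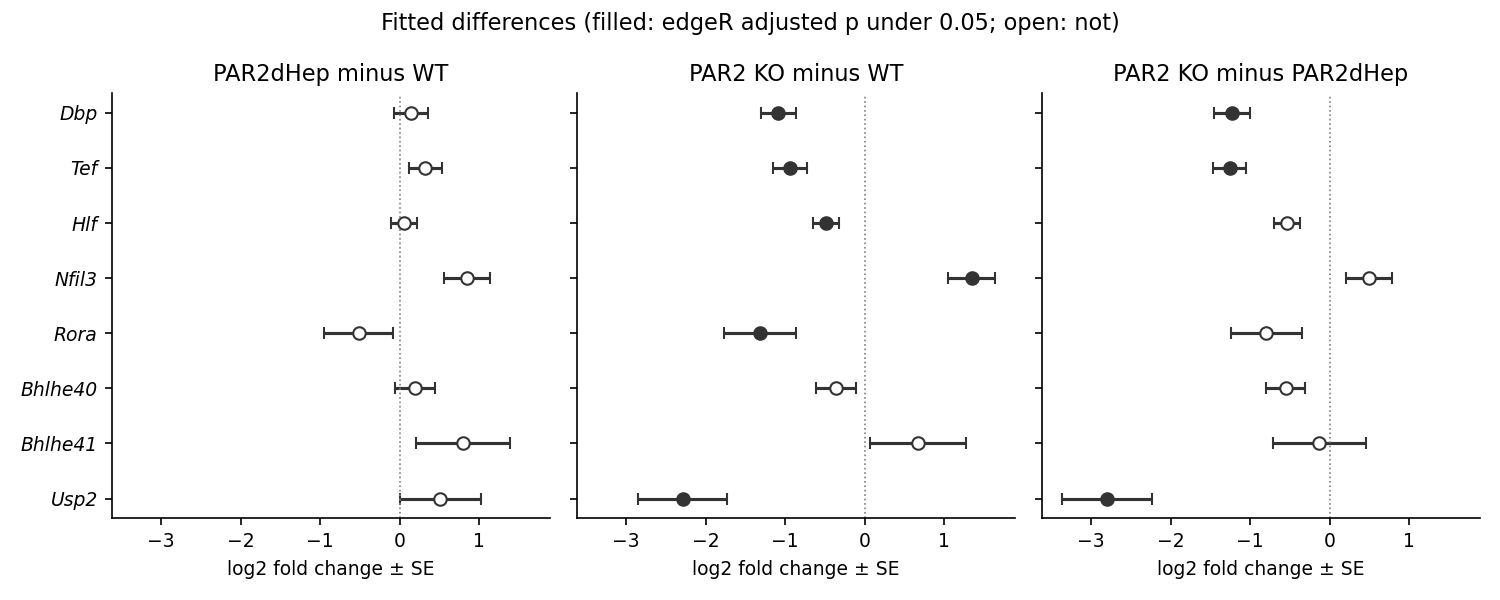
Log2 fold change of each member with its SE (horizontal axis, edgeR) in PAR2dHep against WT (left), KO-labelled livers against WT (middle) and KO-labelled livers against PAR2dHep (right), with filled points where the adjusted p is under 0.05. Dbp, Tef and Usp2 lie left of 0 in both comparisons of KO-labelled livers, Nfil3 lies right of 0 in all 3, and no point is filled for PAR2dHep against WT.

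The members differed in how much mice of a group varied. In WT the coefficient of variation was 2.68% for Rora, 4.81% for Nfil3, 5.63% for Dbp and 7.01% for Hlf. For these 4 genes the other groups spread more widely. The coefficient was 55.4% for Rora, 37.4% for Nfil3, 29.7% for Dbp and 21.9% for Hlf in KO-labelled livers, and 51.7% for Rora, 36.7% for Nfil3, 20.2% for Dbp and 14.01% for Hlf in PAR2dHep. Tef had 23.4% in KO-labelled livers, 23.4% in PAR2dHep and 12.9% in WT, and Usp2 had 52.7% in KO-labelled livers, 65.0% in PAR2dHep and 16.9% in WT. Bhlhe41 and Bhlhe40 did not follow this order. Bhlhe41 had 21.3% in KO-labelled livers, 91.0% in PAR2dHep and 35.3% in WT, and Bhlhe40 had 34.0% in KO-labelled livers, 19.05% in PAR2dHep and 20.6% in WT. Bhlhe41 and Usp2 had the widest spread in PAR2dHep, where the highest library held 7.34 times the level of the lowest for Bhlhe41 and 5.24 times for Usp2. Per kilobase of the deposited gene model, which allows levels to be compared between genes, Bhlhe40 was at or near the top in all groups, at a mean of 32.5 CPM per kilobase in KO-labelled livers, 47.7 in PAR2dHep and 41.8 in WT. Tef followed at 20.3 in KO-labelled livers, 48.4 in PAR2dHep and 38.8 in WT, and Dbp at 17.6 in KO-labelled livers, 41.2 in PAR2dHep and 37.2 in WT. These 3 genes, all near the top, lay within each other's spread in PAR2dHep and in WT. Hlf was at 10.1 CPM per kilobase in KO-labelled livers, 14.7 in PAR2dHep and 14.1 in WT, and Nfil3 at 13.5 in KO-labelled livers, 9.62 in PAR2dHep and 5.33 in WT. Rora was at 3.80 in KO-labelled livers, 6.58 in PAR2dHep and 9.47 in WT, and Usp2 at 1.17 in KO-labelled livers, 8.10 in PAR2dHep and 5.67 in WT. Bhlhe41 was the lowest member in every group, at 1.05 CPM per kilobase in KO-labelled livers, 1.13 in PAR2dHep and 0.659 in WT, with Usp2 within its spread in KO-labelled livers. By mean, Nfil3 ranked above Hlf in KO-labelled livers, where their SDs of 5.05 and 2.22 overlap, and below Rora in WT, where the gap exceeds their SDs of 0.256 and 0.253.

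The levels of the activators moved together over the 9 livers. Pearson's r of log2 CPM, which includes the difference between groups and is given as a description, was 0.939 for Dbp and Tef, 0.915 for Tef and Hlf and 0.856 for Dbp and Hlf. Usp2 ran with them, with r of 0.952 to Tef, 0.888 to Hlf and 0.847 to Dbp. Nfil3 had r of -0.593 to Dbp, -0.425 to Tef and -0.263 to Hlf, and -0.648 to Rora. Among all tested genes that averaged 1 CPM or more, the pattern most like that of Dbp was shown by Foxn2 (r = 0.990) and Bivm (0.974). The nearest to Tef were Fbxo3 (0.988) and Pde3b (0.986), and to Hlf Mut (0.973) and Dclre1a (0.961). Nfil3 was most like Dgat1 (0.971) and Orai1 (0.961), Rora like Mob1a (0.994) and Xrn1 (0.993), and Bhlhe40 like Gm11437 (0.953) and Map3k1 (0.946). Bhlhe41 was most like Flt3l (0.916) and Cul9 (0.903), the loosest match, and Usp2 like Riok2 (0.990) and Nrg4 (0.981). Likeness in pattern was not likeness in size: Foxn2 averaged 13.7 CPM in KO-labelled livers, 18.1 in PAR2dHep and 17.9 in WT, and Nrg4 averaged 2.19 CPM in KO-labelled livers, 11.4 in PAR2dHep and 11.8 in WT.

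The lists that follow are read beside the shares of all genes given above for each comparison. Upstream of the members, the core clock list of 16 genes had 1 that rose and 5 that fell in KO-labelled livers against WT, 6 of 16 called where 43.0% of all genes were. Its median log2 fold change was -0.18 there, 0.16 in PAR2dHep against WT and -0.52 in KO-labelled livers against PAR2dHep. Arntl, the E-box activator of the loop, averaged 9.05 ± 2.53 CPM in KO-labelled livers, 3.81 ± 1.35 in PAR2dHep and 2.03 ± 0.715 in WT (SD, n = 3 each) and rose by a log2 fold change of 2.16 ± 0.35 against WT (edgeR adjusted p = 0.00157). Its levels in the KO-labelled libraries, 11.4, 9.45 and 6.35 CPM, were above all 6 other livers. The period gene Per3 averaged 7.58 ± 1.58 CPM in KO-labelled livers, 38.3 ± 8.54 in PAR2dHep and 22.6 ± 4.09 in WT. In KO-labelled livers it fell by 1.58 ± 0.22 on the log2 scale against WT (edgeR adjusted p = 0.000769) and by 2.34 ± 0.22 against PAR2dHep (0.000629). Gm129, also known as Ciart, a repressor of BMAL1 and CLOCK, averaged 0.871 ± 0.247 CPM in KO-labelled livers, 6.97 ± 3.84 in PAR2dHep and 5.48 ± 1.35 in WT. It fell by 2.66 ± 0.42 against WT (edgeR adjusted p = 0.00128) and by 3.01 ± 0.42 against PAR2dHep (0.00412). The other genes that fell against WT were Per1, Nr1d2 and the kinase gene Csnk1e, and the count was 3 when any 1 KO-labelled or any 1 WT library was left out. Without PAR2dHep 1, 2 rose against WT. Against PAR2dHep the same list had 6 genes that fell (5.39% of all genes fell and 4.23% rose), and 3 without KO-labelled library 2 or 3. Arntl was the 1 gene that rose there (log2 fold change 1.25 ± 0.34, edgeR adjusted p = 0.0490). Of the 9 fits that leave out a library, the 1 without PAR2dHep 1 kept that rise, with 3 genes of the list up, and the others had 0 up. In PAR2dHep against WT, 5 genes of the list rose (12.4% of all genes did), among them Per2, Per3, Cry1 and Cry2. That count was 0 without WT 1 or WT 3, 1 without WT 2, 2 without PAR2dHep 3 and 3 without PAR2dHep 2, and without PAR2dHep 1 there were 2 that fell. Without WT 1 and PAR2dHep 2 together, 1 gene rose in PAR2dHep against WT, and the adjusted p was 0.142 for Per3, 0.0703 for Cry1 and 0.0808 for Cry2 by edgeR. The same omission left 2 that fell in KO-labelled livers against PAR2dHep, with an edgeR adjusted p of 0.0952 for the rise of Arntl. The ratio of Dbp to Arntl, an output of the loop over its activator, was 2.91, 2.07 and 5.65 in the KO-labelled libraries, 14.7, 34.6 and 13.01 in PAR2dHep and 21.1, 33.5 and 46.5 in WT, with all KO-labelled libraries below all others.

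**Figure D4:**
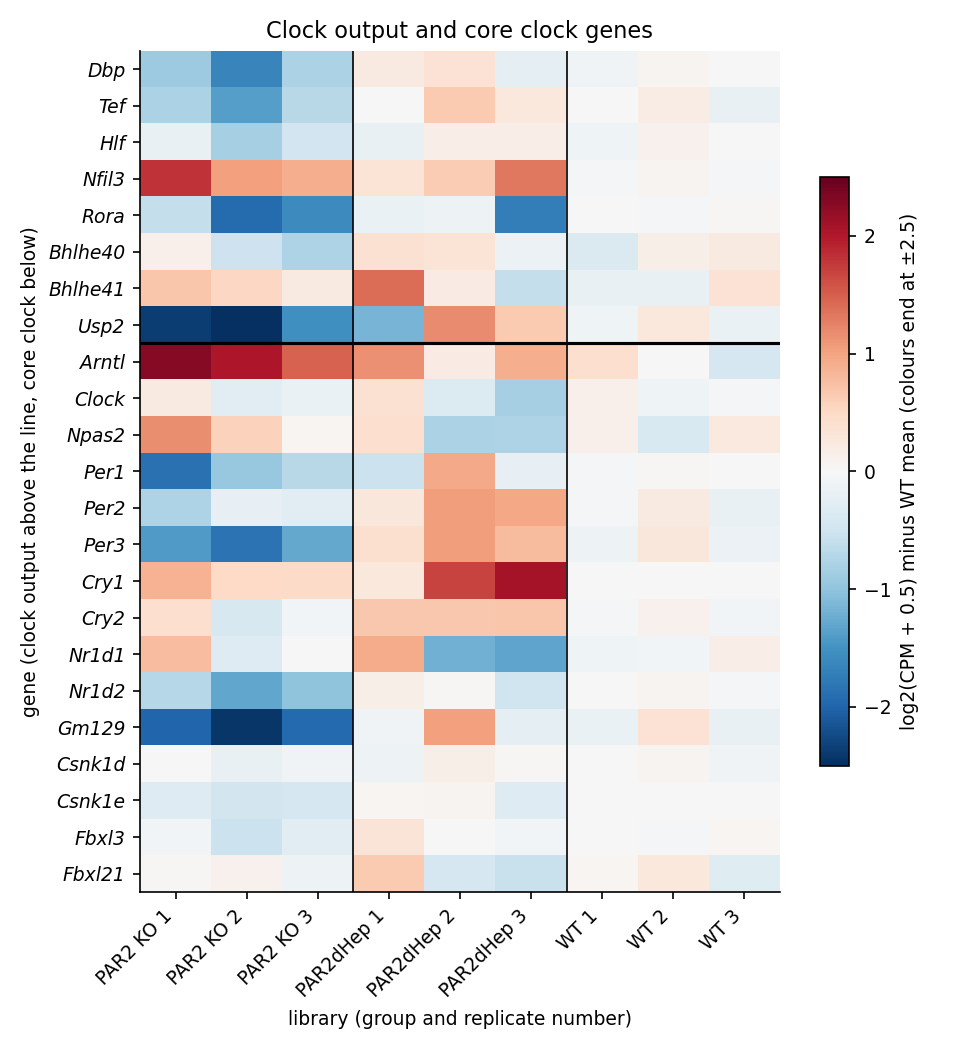
Level of the members (above the line) and of core clock genes (below it) in each liver, as log2 of CPM plus a pseudocount of 0.5 minus the mean of the WT libraries, with KO-labelled libraries at the left, PAR2dHep in the middle and WT at the right. Dbp, Tef, Usp2, Per3 and Gm129 are below the WT mean in the 3 KO-labelled libraries, where Arntl and Nfil3 are above it, and PAR2dHep 1 differs from PAR2dHep 2 and 3 at Nr1d1 and Cry1.

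Among 10 liver genes known as targets of the PAR bZIP factors, 2 rose and 2 fell in KO-labelled livers against WT, 5 rose and 1 fell in PAR2dHep against WT, and 4 fell in KO-labelled livers against PAR2dHep. The share called over all genes was 43.0% in KO-labelled livers against WT, near that of the list, 24.3% in PAR2dHep against WT and 9.62% in KO-labelled livers against PAR2dHep. The list's median log2 fold change was -0.56 in KO-labelled livers against WT, 1.10 in PAR2dHep against WT and -1.28 in KO-labelled livers against PAR2dHep. Ppara, the fatty acid receptor of the fasted liver, had 452, 260 and 270 CPM in the KO-labelled libraries, 462, 546 and 528 CPM in PAR2dHep and 636, 643 and 631 CPM in WT, and fell by 0.96 ± 0.20 on the log2 scale in KO-labelled livers against WT (edgeR adjusted p = 0.00478). Cyp2a4 fell by 6.36 ± 1.04 in the same comparison (edgeR adjusted p = 0.00157). Cyp2c50, a P450 enzyme gene, showed rises of 2.29 ± 0.35 in KO-labelled livers (edgeR adjusted p = 0.00115) and 2.15 ± 0.35 in PAR2dHep (0.00337), both over WT. Cyp2c37 rose in PAR2dHep over WT by 2.30 ± 0.28 (edgeR adjusted p = 0.000932). These P450 genes have near-identical relatives, so the division of reads among Cyp2a4, Cyp2a5 and the Cyp2c genes is uncertain. The counts depended on single libraries. In PAR2dHep against WT, 2 rose without any 1 KO-labelled or WT library and without PAR2dHep 3, and 3 without PAR2dHep 2. In KO-labelled livers against PAR2dHep, 0 fell without KO-labelled library 2, 1 without library 3 and 2 without library 1. Without WT 1 and PAR2dHep 2 together, 3 rose in PAR2dHep against WT and 1 fell in KO-labelled livers against PAR2dHep. In KO-labelled livers against WT, 1 rose without any 1 KO-labelled library, any 1 WT library or PAR2dHep 3, and 4 fell without PAR2dHep 1. No gene of the list fell in PAR2dHep against WT by edgeR's test without WT 2 or WT 3.

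**Figure D5:**
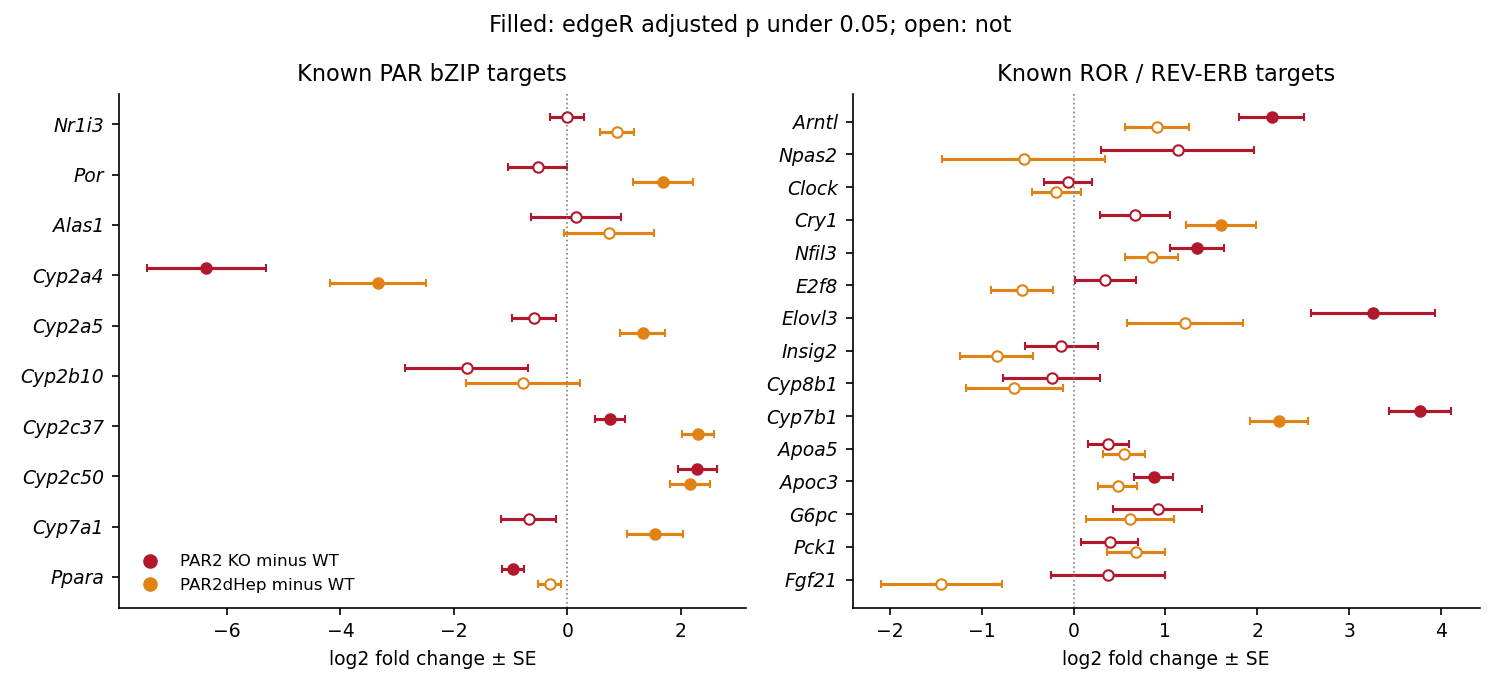
Log2 fold change (horizontal axis, edgeR, with SE) of known PAR bZIP targets (left) and ROR or REV-ERB targets (right) in KO-labelled livers against WT and in PAR2dHep against WT, with filled points where the adjusted p is under 0.05. Cyp7b1 lies right of 0 in both comparisons, at 3.77 and 2.24, and Cyp2a4 lies furthest left, at -6.36, in KO-labelled livers against WT.

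Of 16 genes known as targets of ROR or REV-ERB factors, 5 rose in KO-labelled livers against WT, where 20.9% of all genes rose. The list's median log2 fold change was 0.53 there, 0.51 in PAR2dHep against WT and 0.52 in KO-labelled livers against PAR2dHep. Besides Arntl and Nfil3, the risers were Cyp7b1, Elovl3 and Apoc3. Cyp7b1, an oxysterol hydroxylase of bile acid synthesis, averaged 574.8 ± 79.6 CPM in KO-labelled livers, 198.3 ± 69.6 in PAR2dHep and 42.1 ± 18.1 in WT (SD, n = 3 each). It rose by 3.77 ± 0.34 in KO-labelled livers (edgeR adjusted p = 0.000171) and by 2.24 ± 0.32 in PAR2dHep (0.00198), both on the log2 scale over WT. Elovl3, an elongase of long fatty acids, stood at 329, 489 and 351 CPM in the KO-labelled libraries, 153, 16.1 and 114 CPM in PAR2dHep and 61.9, 31.5 and 28.9 CPM in WT. The KO-labelled libraries were above all others and PAR2dHep straddled WT, with a rise of 3.26 ± 0.67 in KO-labelled livers over WT (edgeR adjusted p = 0.00461). PAR2dHep against WT had 2 that rose (Cry1 and Cyp7b1), where 12.4% of all genes rose, and KO-labelled livers against PAR2dHep had 2 that rose (Arntl and Cyp7b1), where 4.23% did. In PAR2dHep, 5 rose without PAR2dHep 1 or 2 and 1 without any 1 WT library. Against PAR2dHep, none of the list rose without KO-labelled library 2 or 3, 1 rose without KO-labelled library 1 or any 1 WT library, 4 without PAR2dHep 3 and 3 without PAR2dHep 1.

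Other genes known for daily rhythms in liver were split. Of 13 measured, KO-labelled livers against WT had 1 that rose and 4 that fell, among them Wee1, the kinase that holds back mitosis and a known output of the clock's E-boxes. That is 5 of 13 called, where 43.0% of all genes were. The 13 had a median log2 fold change of -0.31 in KO-labelled livers against WT, 0.25 in PAR2dHep against WT and -0.96 in KO-labelled livers against PAR2dHep. Wee1 averaged 5.36 ± 1.90 CPM in KO-labelled livers, 22.0 ± 10.7 in PAR2dHep and 25.3 ± 4.47 in WT, and fell by 2.24 ± 0.41 on the log2 scale against WT (edgeR adjusted p = 0.00268). Leo1, of the PAF1 transcription complex, rose by 0.96 ± 0.13 (edgeR adjusted p = 0.000693). Upp2, uridine phosphorylase 2, had 79.2, 49.1 and 88.4 CPM in the KO-labelled libraries, 265, 770 and 664 CPM in PAR2dHep and 169, 203 and 166 CPM in WT, and fell by 2.97 ± 0.38 in KO-labelled livers against PAR2dHep (edgeR adjusted p = 0.00270). Cdkn1a, the cell cycle inhibitor p21, had 14.5, 18.3 and 12.99 CPM in the KO-labelled libraries, 1.59, 1.20 and 1.77 CPM in PAR2dHep and 13.4, 20.5 and 22.8 CPM in WT, and in PAR2dHep it fell by 3.64 ± 0.25 on the log2 scale against WT (edgeR adjusted p = 8.87e-05). Against PAR2dHep, Cdkn1a rose in KO-labelled livers by 3.33 ± 0.25 (edgeR adjusted p = 0.000191). The number that fell in KO-labelled livers against WT was 1 without KO-labelled library 2, 2 without WT 2 and 6 without PAR2dHep 1 or 2, and 2 rose without PAR2dHep 2 or 3. PAR2dHep against WT had 2 that rose and 1 that fell, where 24.3% of all genes were called. There 0 rose without WT 3, 5 without PAR2dHep 1 and 1 without each other library, and 3 fell without PAR2dHep 2. KO-labelled livers against PAR2dHep had 2 that rose and 4 that fell, where 9.62% of all genes were called, with 1 that fell without KO-labelled library 2 or 3, 2 without library 1, and 1 that rose without library 2. Without WT 1 and PAR2dHep 2 together, 7 fell in KO-labelled livers against WT, 0 rose by edgeR and 3 fell in PAR2dHep against WT, and 1 fell in KO-labelled livers against PAR2dHep.

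Of 10 glucocorticoid-responsive genes, a daily cue for the liver clock, 3 fell in KO-labelled livers against WT: Fkbp5, Mt1 and Mt2. Over all genes, 22.1% fell there. No gene of the list rose by edgeR's test, so 3 of 10 were called where 43.0% of all genes were. The log2 fold change was above 0 for 3 of the 10. These 10 had a median log2 fold change of -0.58 there, 0.33 in PAR2dHep against WT and -0.62 in KO-labelled livers against PAR2dHep. Mt1, a metallothionein, had 2.96, 3.26 and 3.52 CPM in the KO-labelled libraries, 6.12, 16.3 and 12.1 CPM in PAR2dHep and 6.20, 10.7 and 15.9 CPM in WT, and fell by 1.76 ± 0.40 against WT (edgeR adjusted p = 0.00734). The number that fell was 1 without KO-labelled library 2 or WT 3, and 1 rose without KO-labelled library 2 or 3 or PAR2dHep 3. In PAR2dHep against WT, 2 of these genes rose (12.4% of all genes did), 1 without PAR2dHep 3 and 0 without any 1 WT library, and 1 fell without PAR2dHep 2 or 3. In KO-labelled livers against PAR2dHep, 2 fell (5.39% of all genes did), with 0 without KO-labelled library 2 or 3 or PAR2dHep 2, 1 without any 1 WT library and 4 without PAR2dHep 1. Without WT 1 and PAR2dHep 2 together, 0 rose by edgeR and 1 fell in PAR2dHep against WT, and 1 fell in KO-labelled livers against PAR2dHep.

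The samples are whole liver, so fewer cells of a type and less RNA per cell cannot be told apart. Markers of other liver cells moved with the groups. Summed over 10 macrophage markers, levels were 130.5 to 204.0 CPM in KO-labelled libraries, 239.3 to 477.1 CPM in PAR2dHep and 541.9 to 656.2 CPM in WT, with no overlap between the groups. The 8 stellate and fibroblast markers summed to 254.4 to 345.0 CPM in KO-labelled libraries, 305.3 to 481.8 in PAR2dHep and 601.3 to 676.4 in WT. The 8 endothelial markers summed to 284.6 to 319.6 CPM in KO-labelled libraries, 337.1 to 422.3 in PAR2dHep and 446.3 to 489.2 in WT. Every library had reads of all macrophage, stellate and endothelial markers on these lists. Cholangiocyte markers summed to 68.7 to 116.6 CPM in KO-labelled libraries, 44.1 to 56.7 CPM in PAR2dHep and 123.7 to 196.0 CPM in WT, and lymphocyte markers to 1.79 to 3.62 CPM in KO-labelled libraries, 3.39 to 7.31 in PAR2dHep and 4.33 to 5.15 in WT. Their part in the levels of the members was not tested. Dbp shares 539 exonic bases with Sphk2 on the opposite strand and Bhlhe40 118 bases with 0610040F04Rik, and per the file headers the reads were counted by strand.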

How the data were processed

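The deposited table holds raw counts of reads per gene, made by the authors with featureCounts 1.6.2 and strand setting 2, per the file headers, after alignment to mm10 with HISAT2 2.1.0, per the submitters' processing notes. The deposited Length column, a value of other kind in bases, was used only for CPM per kilobase. From the counts, genes were kept by filterByExpr of edgeR 4.0.16 (minimum count 10, minimum total 15), which left 13141 of 23337. All 9 libraries entered 1 quasi-likelihood fit with TMM factors (R 4.3.3), and p-values were adjusted over all 13141 genes (Benjamini-Hochberg) and called under 0.05. The p-values rest on a spread between mice that was estimated over all 3 groups together, with 3 mice a group. It is not the spread of the compared groups alone. CPM uses TMM-scaled library sizes. The procedure was also run on simulated data in which each gene had the same spread in all groups, and the outcome is not reported here.

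The members and gene lists were chosen with earlier results of these data known. Named are the 8 members, F2rl1, for each member the 2 genes of at least 1 CPM with the highest r, and from each list up to 3 called genes with the smallest p per comparison. Of these 40 list results, the 19 that passed under every alternative and 1 other are printed with values, a subset set after the alternatives were seen. Lists were matched through RefSeq synonyms, and Noct was not matched. Some genes of the lists are counted but not reported here. The 17 alternatives were edgeR with size factors from DESeq2, DESeq2 1.42.0, limma 3.58.1 voom with quality weights, no filter, a stricter filter (1 CPM in 3 libraries), only the compared groups, the replicate number as a block, leaving out each library, and leaving out WT 1 and PAR2dHep 2 together.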

Additional observations from a re-analysis of the deposited data

How the results depend on the processing

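Dbp, Tef, Nfil3 and Usp2 passed in KO-labelled livers against WT under all 17 alternatives, and Tef did so against PAR2dHep. The number of members called in KO-labelled livers against WT was 6, and 4 to 7 under the alternatives and when single libraries were left out. Against PAR2dHep it was 3, with 2 to 4 when single libraries were left out and 1 without WT 1 and PAR2dHep 2 together. In PAR2dHep against WT it was 0, with 1 by DESeq2, 1 with only these groups in the fit and 0 to 1 when single libraries were left out. Differences that missed the threshold turned round in PAR2dHep against WT, those of Dbp, Hlf and Bhlhe40 whose values were 0.15, 0.06 and 0.19, and those of Usp2 and Bhlhe41, whose values were 0.51 and 0.80; the cause was not tested. Without WT 1 and PAR2dHep 2 the log2 fold changes were -0.023 for Dbp, -0.054 for Hlf, -0.044 for Bhlhe40 and -0.061 for Usp2. By limma voom they were -0.0016 for Hlf and -0.062 for Usp2. When single libraries were left out, Hlf ran from -0.0017 (without PAR2dHep 2; -0.0010 without PAR2dHep 3) to 0.17, Usp2 from -0.0027 (without PAR2dHep 2) to 0.95 and Bhlhe41 from -0.24 (without PAR2dHep 1) to 1.23. In KO-labelled livers against PAR2dHep, Bhlhe41 ran from -0.55 to 0.91 (without PAR2dHep 1) and was at 0.02 without KO-labelled library 3. Same-numbered libraries of different groups had r of their deviations from -0.272 to 0.0273, and differently numbered ones from -0.140 to 0.273. The numbers are not stated to pair the mice. These values cannot settle it, because the deviations within a group of 3 depend on each other. With the replicate number as a block, 0, 5 and 3 members passed in PAR2dHep against WT, KO-labelled livers against WT and KO-labelled livers against PAR2dHep. The member lost was Hlf (edgeR adjusted p = 0.0667), and Bhlhe41 was at 0.054 in the third comparison. Over all genes tested, calls came to 3192 (1359 to 4025 under the alternatives), 5653 (3835 to 8202) and 1264 (342 to 2809) in the same 3 comparisons. Of the 40 results named from the gene lists, 21 lost the call under at least 1 alternative.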

Other observations

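The PAR2dHep mice differed among themselves at several clock genes, which were chosen after their values were seen. Nr1d1, the gene of the repressor REV-ERB alpha, had 127 CPM in PAR2dHep 1 and 28.9 and 26.4 CPM in PAR2dHep 2 and 3, against 62.5, 63.9 and 75.0 CPM in WT. Cry1, a repressor of the core loop, had 6.81, 19.04 and 25.2 CPM in PAR2dHep 1, 2 and 3, against 5.63, 5.56 and 5.53 CPM in WT. Among the members, Usp2 was lowest in PAR2dHep 1, at 10.8 CPM against 56.5 and 39.2 CPM in PAR2dHep 2 and 3, while Bhlhe41 was highest there, at 3.24 CPM against 1.12 and 0.441 CPM. Rora was not split in this way, since it was PAR2dHep 3 that stood low, at 4.37 CPM. Pancreatic and muscle genes were high in PAR2dHep 2 and not in PAR2dHep 3, and their part in these differences was not tested.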
